A study of Mus musculus with 54 samples.

Results

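The proteasome genes examined here were those whose symbols begin with Psma, Psmb, Psmc, Psmd, Psme, Psmf, or Psmg followed by a number, that carry no pseudogene ending (-ps), and that had a mean of at least 10 reads per library in both experiments. Of the 55385 genes in each count table, 54 symbols matched this pattern and 47 were kept. Of the other 7, 4 are annotated as pseudogenes, and Psma8, Psmb11, and Psme2b fell under the minimum. The rule used mean read counts over all libraries and no difference between groups. RNA of mouse naive CD4+ T cells was sequenced in 2 experiments. The CD5/CD6 experiment held 36 libraries of WT, Cd5-/-, Cd6-/-, and Cd5-/-Cd6-/- cells that had been enriched magnetically from pooled lymph nodes and spleens. The LAT experiment held 18 libraries of cells sorted from Lat fl-dtr maT-Cre mice, in which a Cre that acts in mature T cells deletes Lat. Cells that had kept a reporter called hDTR served there as the WT and cells that had lost it as the Lat-/-, so both came from mice of the same cross. Whether libraries with the same replicate number came from the same animal is not given in the sources used here. All mice were on the C57BL/6 background. RNA was taken from cells left unstimulated (0 h) or after 4 h or 20 h of stimulation by anti-CD3 coated on the plate (3 µg/ml) and anti-CD28 in solution (1 µg/ml), with 3 replicates per genotype and time. Whether the unstimulated cells were kept in culture is not given in the sources used here.

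The libraries held 20554354 to 45222554 reads assigned to genes in the CD5/CD6 experiment and 17784644 to 28501095 in the LAT experiment. Of 8 genes that mark CD4 T cells, none was at 0 in any group. In the CD5/CD6 experiment, 8 B cell markers summed to between 72.4 and 629 CPM (counts scaled to a library of fixed size after TMM adjustment) at 0 h and to between 1.30 and 5.26 CPM at 20 h, and 8 myeloid markers reached 723 CPM in a 0 h library labeled Cd6-/-. In the LAT experiment, the same B cell markers stayed between 0.621 and 4.97 CPM. The part of these other cells in the results was not tested. The 0 h libraries 2 labeled Cd5-/- and Cd6-/- went against their labels. Cd5 stood at 128.6, 719.5, and 105.2 CPM in the 3 libraries labeled Cd5-/-, and Cd6 stood at 349.5, 1203, and 251.4 CPM in those labeled Cd6-/-. The other gene was low in the same libraries 2, with Cd6 at 1298, 328.6, and 1084 CPM in the libraries labeled Cd5-/- and Cd5 at 724.2, 172.5, and 718.6 CPM in those labeled Cd6-/-, so for both genes each of these libraries 2 lay nearer to the group of the other label. In the WT at 0 h, Cd5 stood at 609.2, 602.2, and 657.2 CPM, and Cd5-/-Cd6-/- libraries held under 0.7 CPM of either gene. The labels were used as given, and the counts that rest on these groups are also given without those 2 libraries. Separately, the 0 h library 3 labeled Cd6-/- and the 0 h library 2 of the hDTR+ WT stood apart by the share of all reads that fell on the 47 proteasome genes, which was 0.810% against 0.577% and 0.557% in the first group and 0.840% against 0.617% and 0.624% in the second.

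The proteasome is the protease that breaks down most proteins tagged with ubiquitin. Its core is a barrel of stacked rings, with outer rings of alpha subunits (Psma) that gate the entrance and inner rings of beta subunits (Psmb) that hold the active sites. A regulatory particle of ATPases (Psmc), which unfold the substrate, and of non-ATPase subunits (Psmd), which bind and strip ubiquitin, caps the barrel, and dedicated chaperones assemble the core (Psmg) and the base of the cap (Psmd5, Psmd9, and Psmd10). In lymphocytes and in cells exposed to interferon, the active subunits Psmb5, Psmb6, and Psmb7 are exchanged for Psmb8, Psmb9, and Psmb10 to give the immunoproteasome, which yields peptides suited to MHC class I molecules. A naive T cell that is activated through its antigen receptor and CD28 grows and then divides, which raises protein synthesis and turnover. The adaptor LAT carries the receptor signal onward, and CD5 and CD6 are surface receptors that modulate it.

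Among the 47 proteasome genes, WT cells of the CD5/CD6 experiment had 34 that were higher and 3 that were lower at 4 h than at 0 h, and 44 and 1 at 20 h. A gene was called when edgeR's quasi-likelihood test gave an adjusted p under 0.05 over all genes. Of all 32290 genes tested, 13.3% were higher and 15.2% were lower at 4 h, and 16.9% were higher and 21.1% were lower at 20 h. The median log2 fold change of the 47 genes was 0.89 at 4 h and 1.66 at 20 h, against -0.08 and -0.07 for all genes with a mean of at least 10 reads. Of those genes, which are the nearer background for the 47, 29.3% were higher and 31.3% were lower at 4 h, and 35.4% and 37.7% at 20 h. Between 4 h and 20 h, 39 were higher and 0 lower, where 13.8% of all genes were higher and 16.7% were lower. The hDTR+ WT cells of the LAT experiment gave 34 higher and 3 lower at 4 h (14.2% and 14.8% of all 27780 genes tested) and 39 higher and 3 lower at 20 h (16.5% and 18.2%). There, 22 were higher at 20 h than at 4 h and 0 lower (13.4% and 16.1%), and the median log2 fold change was 0.78 at 4 h and 1.17 at 20 h, against -0.03 and -0.07. The shares of genes with a mean of at least 10 reads were 29% higher and 30.5% lower at 4 h and 32.4% and 35.2% at 20 h there. From 4 h to 20 h these shares were 27% and 32.3%. The proteasome genes took 0.590% ± 0.0556 (SD, n = 3) of all reads before stimulation, 0.864% ± 0.0737 after 4 h, and 1.45% ± 0.187 after 20 h in the WT of the CD5/CD6 experiment. The shares in the hDTR+ WT were 0.694% ± 0.127, 0.924% ± 0.0413, and 1.30% ± 0.0556. The comparisons with 0 h and between 4 h and 20 h share libraries. In bulk samples such as these, fewer cells of a type and less RNA per cell cannot be told apart. Of the lower genes, all were immunoproteasome subunits, which are described apart. Scaling by library totals, which shifts the median of all expressed genes to -0.32 and -0.27 at 4 h, gave 30 and 29 higher genes at 4 h in the WT of the CD5/CD6 and LAT experiments. Without the 0 h library 2 of the hDTR+ WT, 37 were higher at 4 h and 41 at 20 h.

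**Figure D1:**
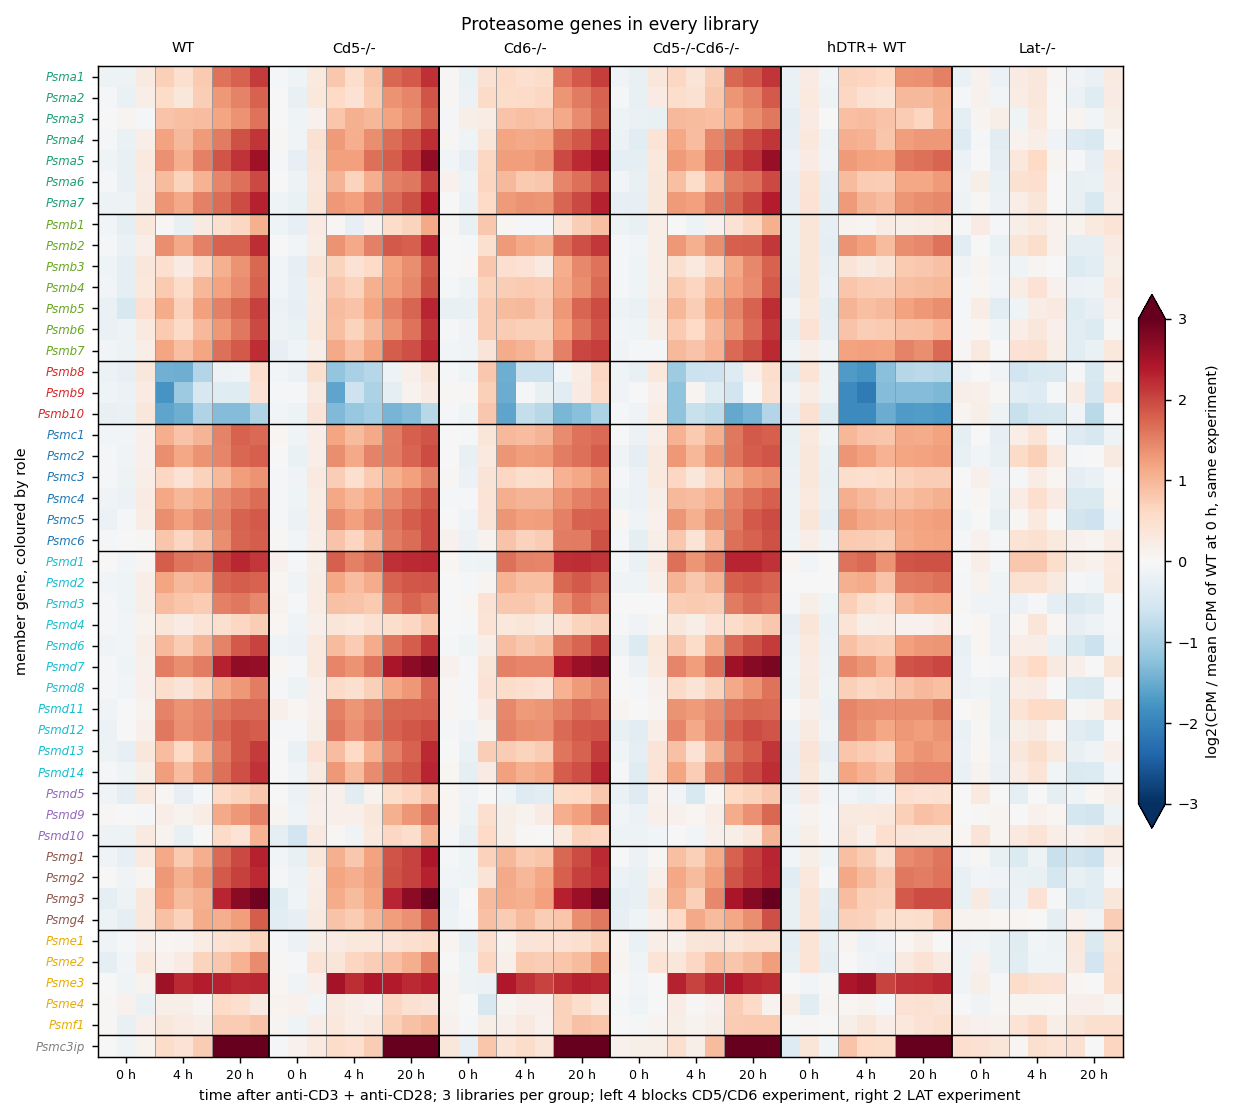
Each row is 1 of the 47 genes and each column 1 library, and the color is the log2 of the CPM over the mean CPM of the WT at 0 h of the same experiment. Most rows darken toward red at 4 h and 20 h in the WT and in the Cd5-/-, Cd6-/-, and Cd5-/-Cd6-/- cells, Psmb8, Psmb9, and Psmb10 turn blue at 4 h, and the Lat-/- columns stay pale.

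All 7 alpha ring genes and all 6 ATPase genes were higher at both times in both experiments. The median alpha ring gene stood 1.87-fold higher at 4 h and 3.58-fold higher at 20 h in the WT of the CD5/CD6 experiment, and 1.86-fold and 2.43-fold higher in the hDTR+ WT. Psma5, an alpha ring subunit, measured 22.94, 21.35, and 30.72 CPM at 0 h, 64.83, 53.31, and 71.09 CPM at 4 h, and 92.96, 112.5, and 145.5 CPM at 20 h in the WT of the CD5/CD6 experiment. The 3 times did not overlap, and the log2 fold change at 20 h was 2.23 (SE 0.21, adjusted p = 1.74e-15). Psma3, which had the smallest rise of the ring at 20 h, still rose (log2 fold change 1.40, SE 0.17, adjusted p = 4.14e-11). Of the 50-base stretches of Psma5, 55.4% also occur in other annotated genes, foremost a processed pseudogene, and of Psma3 22%, so their counts may depend on how reads with several matches were treated. Among the ATPases, the largest log2 fold change at 20 h was that of Psmc5 at 1.71 (SE 0.16, adjusted p = 1.57e-15) and the smallest that of Psmc3 at 1.20 (SE 0.16, adjusted p = 1.21e-09). At 4 h, Psmc3 had a log2 fold change of 0.58 (adjusted p = 0.00222) in the WT and 0.53 (adjusted p = 0.0016) in the hDTR+ WT, and neither was called without the replicates numbered 1 (0.53, adjusted p = 0.0518, and 0.40, adjusted p = 0.189) or with library totals.

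In the beta ring, all 7 standard genes were higher at 20 h in the WT of the CD5/CD6 experiment and 6 of 7 in the hDTR+ WT. Psmb5, which carries the chymotrypsin-like site, measured 21.18, 17.47, and 34.84 CPM at 0 h, 53.28, 39.46, and 57.76 CPM at 4 h, and 69.4, 80.69, and 102.3 CPM at 20 h. Psmb6, which carries the caspase-like site, went from 128.8, 132.1, and 182.1 CPM to 256.3, 219.6, and 292 CPM and then to 364.1, 445.1, and 581 CPM. Psmb7, which carries the trypsin-like site, went from 54.87, 52.18, and 66.97 CPM to 131.1, 109.1, and 132.7 CPM and then to 182.3, 207, and 270.3 CPM. For each of these genes the libraries of 0 h, 4 h, and 20 h did not overlap. The log2 fold changes at 20 h were 1.78 (SE 0.22, adjusted p = 5.36e-11), 1.65 (SE 0.20, adjusted p = 2.5e-11), and 1.92 (SE 0.17, adjusted p = 3.49e-16). Of the 50-base stretches of Psmb5, 54.1% occur in other genes, foremost a processed pseudogene, and 28.1% of those of Psmb7 lie in the overlapping gene Nek6. Psmb2 had the largest change of the ring at 1.93 (SE 0.17, adjusted p = 1.36e-16). Psmb1, a beta subunit without an active site, had the smallest. Its libraries stood at 240, 208.1, and 318 CPM at 0 h and at 260.4, 217.6, and 305.9 CPM at 4 h, which overlap fully (log2 fold change 0.03, SE 0.19, adjusted p = 1). It rose at 20 h (log2 fold change 0.74, SE 0.19, adjusted p = 0.000703), while in the hDTR+ WT it reached 0.23 (SE 0.15, adjusted p = 0.245). The latter value was 0.41 (adjusted p = 0.033) without the replicates numbered 2.

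Of the 11 non-ATPase subunits, 10 were higher at 4 h in both experiments, and 11 at 20 h in the WT of the CD5/CD6 experiment and 10 in the hDTR+ WT. Psmd7, a subunit of the lid that pairs with the deubiquitinase Psmd14, rose the most. Its libraries measured 88.78, 84.77, and 103 CPM at 0 h, 268.3, 241.2, and 265.2 CPM at 4 h, and 459.9, 584.8, and 576.4 CPM at 20 h in the WT of the CD5/CD6 experiment. None of these ranges overlapped, and the level at 20 h was 5.86-fold that at 0 h (log2 fold change 2.55, SE 0.16, adjusted p = 2.17e-23). The hDTR+ WT gave 3.85-fold (1.95, SE 0.15, adjusted p = 2.53e-35). The scaffold subunit Psmd1 was already 3.15-fold higher at 4 h (log2 fold change 1.66, SE 0.15, adjusted p = 5.16e-16), and Psmd14 had a log2 fold change of 1.17 at 4 h and 1.93 at 20 h (adjusted p = 3.56e-15). Psmd4, a receptor for ubiquitin chains, was the exception. It measured 167.5, 164.4, and 186.8 CPM at 0 h, 223.5, 205.3, and 231 CPM at 4 h, and 240.1, 264.9, and 289 CPM at 20 h, and the log2 fold changes were 0.35 (SE 0.15, adjusted p = 0.0691) and 0.61 (SE 0.15, adjusted p = 0.000329). With the replicate number as a block, which pairs the libraries of this experiment, the change of Psmd4 at 4 h passed the test (0.35, adjusted p = 0.00724), as it did with DESeq2 (0.34, adjusted p = 0.0117), with a filter on low counts (0.35, adjusted p = 0.0138), and without the replicates numbered 3 (0.37, adjusted p = 0.0198). Its values in the hDTR+ WT were 0.27 (adjusted p = 0.179) and 0.17 (adjusted p = 0.461). There, the value at 4 h without the replicates numbered 2 was 0.49 (adjusted p = 0.0111).

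All 4 core chaperones were higher at both times in both experiments. Psmg3 measured 9.876, 10.75, and 15.25 CPM at 0 h, 28.21, 22.94, and 25.19 CPM at 4 h, and 58.32, 78.29, and 89.58 CPM at 20 h in the WT of the CD5/CD6 experiment, a 6.29-fold rise to 20 h without overlap (log2 fold change 2.65, SE 0.22, adjusted p = 1.6e-17). Psmg4 had the smallest change of the 4 at 1.42 (SE 0.21, adjusted p = 2.24e-08). Psmg4 had 0.63 at 20 h in the hDTR+ WT (adjusted p = 0.000727), which was not called without the replicates numbered 3 (0.38, adjusted p = 0.126). At 4 h there, Psmg3 at 0.78 and Psmg4 at 0.65 were called, and neither was without the replicates numbered 1 (0.55, adjusted p = 0.106, and 0.46, adjusted p = 0.181), nor was Psmg4 with library totals (0.41, adjusted p = 0.0593). The 3 base chaperones were not called by edgeR at 4 h in either experiment and had unadjusted p-values from 0.0657 to 0.851. Psmd9 at 4 h in the hDTR+ WT was called with DESeq2 (0.30, adjusted p = 0.0249) and with a filter on low counts (0.32, adjusted p = 0.0203). Psmd5 had a log2 fold change of -0.08 at 4 h (SE 0.16, adjusted p = 0.872) and of 0.68 at 20 h (SE 0.16, adjusted p = 0.000306). The value of Psmd5 at 20 h was 0.53 (adjusted p = 0.0565) without the replicates numbered 2. Psmd9 had 0.18 (SE 0.16, adjusted p = 0.544) and 1.31 (SE 0.17, adjusted p = 1.89e-10). In the hDTR+ WT at 20 h, Psmd9 (0.81) and Psmd5 (0.47) were called and Psmd10 (0.38, adjusted p = 0.165) was not, and Psmd5 was not called without the replicates numbered 1 (0.39, adjusted p = 0.18).

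Among the activators that can replace the regulatory particle, Psme3, which forms a nuclear activator ring, changed early and stayed high. It measured 190.4, 170.7, and 202.3 CPM at 0 h, 1095, 893, and 963.1 CPM at 4 h, and 924.7, 883.4, and 898.5 CPM at 20 h in the WT of the CD5/CD6 experiment. The stimulated libraries at 4 h and 20 h overlapped and lay far above those at 0 h. The log2 fold change was 2.39 at 4 h (SE 0.15, adjusted p = 1.3e-23), 2.26 at 20 h (SE 0.15, adjusted p = 1.03e-22), and -0.12 from 4 h to 20 h (SE 0.14, adjusted p = 0.596). The hDTR+ WT gave 2.35 (SE 0.15, adjusted p = 2.33e-50) and 2.21 (SE 0.15, adjusted p = 3.21e-45). It was the largest change among the 47 genes at 4 h in both experiments. The interferon-inducible activators Psme1 and Psme2 were not called at 4 h (0.12, adjusted p = 0.66, and 0.37, adjusted p = 0.156) and were higher at 20 h (0.53, adjusted p = 0.003, and 1.12, adjusted p = 7.48e-07). Neither was called at 20 h in the hDTR+ WT (0.08, adjusted p = 0.772, and 0.33, adjusted p = 0.0777). Psme4, another nuclear activator, had 0.47 at 20 h (SE 0.16, adjusted p = 0.0112) in the WT and 0.42 (SE 0.15, adjusted p = 0.0169) in the hDTR+ WT. Neither call of Psme4 held throughout, with 0.41 (adjusted p = 0.156) and 0.47 (adjusted p = 0.103) without the replicates numbered 1 and 2 and 0.32 (adjusted p = 0.097) with library totals in the first, and 0.22 (adjusted p = 0.382) without the replicates numbered 2 in the second. Psmf1, which binds the core and can inhibit it, rose at 20 h as well (0.80, SE 0.14, adjusted p = 2.79e-06).

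The largest change at 20 h belonged to Psmc3ip, which matches the symbol pattern but is no proteasome subunit. It is named for binding Psmc3 and is known as a cofactor of homologous recombination. It measured 3.658, 3.312, and 3.904 CPM at 0 h, 5.353, 4.894, and 6.173 CPM at 4 h, and 46.34, 54.74, and 59.94 CPM at 20 h in the WT of the CD5/CD6 experiment. The rise from 0 h to 20 h was 14.8-fold (log2 fold change 3.88, SE 0.21, adjusted p = 1.08e-27). The hDTR+ WT showed a rise of 9.92-fold (3.31, SE 0.23, adjusted p = 3.08e-47). At 4 h the log2 fold change was 0.59 (adjusted p = 0.0147) and 0.68 (adjusted p = 0.00829), and these calls were lost without the replicates numbered 1 (0.61, adjusted p = 0.0681, and 0.37, adjusted p = 0.533) and, in the first, without those numbered 2 (0.58, adjusted p = 0.114). They were also lost with library totals in both experiments (0.35, adjusted p = 0.19, and 0.44, adjusted p = 0.148). Reads of Psmc3ip may include some of its neighbor Mlx, which shares 27.1% of its 50-base stretches.

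Since most of these genes moved together, the letters around their start sites were read from RefSeq sequences of GRCm38.p6. A window from 250 bases before to 50 after the start was at hand for 40 of the 47 genes (43 windows, of 32851 in all), and 10 motifs were searched on both strands. The stretches below, of 50 bases each, written 5′ to 3′ on the strand of the gene with the match in capitals, show 2 motifs: TGACNNNGC, the core of the element bound by Nfe2l1 and Nfe2l2, which are known to drive proteasome genes when the proteasome is inhibited, and CCGGAAG, bound by Ets factors. These genes were chosen after their values were seen.
Psmb5, TGACNNNGC, chr14:54618013-54618062, minus strand: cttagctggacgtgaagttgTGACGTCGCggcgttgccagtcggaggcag
Psmb6, TGACNNNGC, chr11:70525307-70525356, plus strand: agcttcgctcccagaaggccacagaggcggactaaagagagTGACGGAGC
Psmc6, TGACNNNGC, chr14:45329577-45329626, plus strand, as the reverse complement: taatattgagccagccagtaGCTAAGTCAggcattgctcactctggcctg
Psmd12, TGACNNNGC, chr11:107479278-107479327, plus strand, as the reverse complement: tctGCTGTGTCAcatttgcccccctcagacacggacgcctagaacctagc
Psme3, CCGGAAG, chr11:101316085-101316134, plus strand: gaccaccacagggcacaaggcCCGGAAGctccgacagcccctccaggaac
Psmg1, CCGGAAG, chr16:95991001-95991050, minus strand: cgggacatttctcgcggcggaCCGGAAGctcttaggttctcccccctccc
Psmd6, CCGGAAG, chr14:14120962-14121011, minus strand: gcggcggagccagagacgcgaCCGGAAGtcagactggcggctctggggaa
Psmd12, CCGGAAG, chr11:107479478-107479527, plus strand, as the reverse complement: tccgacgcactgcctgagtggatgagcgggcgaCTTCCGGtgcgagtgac
CCGGAAG was found in 16 of the 43 windows (37.2%), against 8.86% of all windows. Counted from the start site, its first base lay at -107 in Psme3, -69 in Psmg1, -45 in Psmd6, and -17 in Psmd12. TGACNNNGC was found in 6 windows (14%), those of Psmb5, Psmb6, Psmc6, Psmd9, Psmd12, and Psme4, against 12.4% of all windows, at -47 in Psmb5, -9 in Psmb6, -227 in Psmc6, and -247 in Psmd12. The interferon-stimulated response element, written as a pair of GAAA set apart by any 2 bases, was found in 5 windows (11.6%), those of Psmb3, Psmd4, Psmd9, Psme1, and Psmg4, against 3.44%. The E-box CACGTG was in 4 windows (9.3%, against 7.15%), CCAAT in 14 (32.6%, against 37.4%), the E2F-type TTTCCCGC in 2 (4.65%, against 1.07%), and a 10-base NF-kB-type motif in 1 (2.33%, against 1.47%). TCCCGGGA, TGACGTCA, and GGAAATCCC were in 0 windows, against 0.98%, 1.79%, and 0.323% of all. Each motif was counted on its own, so a base may belong to matches of more than 1 motif. The windows of all genes were taken without a filter on reads, whereas the 47 genes had to pass one. Shares among windows of genes with a mean of at least 10 reads were not counted. These counts describe letters in a window, and a gene without a match in it may have one elsewhere.

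From 0 h to 4 h, the immunoproteasome subunits moved against the others. From 4 h to 20 h, 2 of the 3 were higher and 0 lower in the WT of each experiment. They are among the 39 and 22 genes counted above as higher between these times. Psmb10 changed the least of the 3 between them (0.13 in the WT of the CD5/CD6 experiment and 0.045 in the hDTR+ WT). Psmb8 lies at chr17:34197721-34201454 and Psmb9 at chr17:34181987-34187764 of GRCm38, in the MHC region beside Tap1, and Psmb10 at chr8:105935735-105938444. At 4 h all 3 fell in both experiments. Psmb8, which replaces Psmb5, measured 280, 263.6, and 400.1 CPM at 0 h, 116.4, 114.8, and 171.4 CPM at 4 h, and 282.9, 293, and 444.2 CPM at 20 h in the WT of the CD5/CD6 experiment. Its libraries at 4 h lay below all others, and those at 0 h and 20 h overlapped. The log2 fold change was -1.23 at 4 h (SE 0.21, adjusted p = 1.83e-06), 0.11 at 20 h (SE 0.21, adjusted p = 0.81), and 1.34 from 4 h to 20 h (SE 0.22, adjusted p = 2.81e-07). Psmb9, which replaces Psmb6, measured 182.4, 177.9, and 238.4 CPM, then 58.75, 93.14, and 144.2 CPM, then 155.3, 156.2, and 269.9 CPM. It was lower at 4 h (log2 fold change -1.02, SE 0.26, adjusted p = 0.000892) and stood at -0.04 at 20 h (SE 0.25, adjusted p = 1). Psmb10, which replaces Psmb7, measured 189.2, 192.9, and 278.4 CPM, then 74.12, 79.85, and 117.5 CPM, then 89.58, 88.72, and 118.7 CPM. It fell by 1.28 on the log2 scale at 4 h (SE 0.20, adjusted p = 2.03e-07) and stayed low at 20 h (-1.15, SE 0.20, adjusted p = 1.51e-06).

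In the hDTR+ WT all 3 genes were lower at both times than at 0 h. Psmb9 measured 231.2, 288.4, and 225.1 CPM at 0 h, 65.94, 56.91, and 100.4 CPM at 4 h, and 101.2, 101, and 98.25 CPM at 20 h, and no stimulated library reached the level of any at 0 h. The log2 fold changes at 4 h were -1.56 for Psmb8 (SE 0.15, adjusted p = 1.55e-23), -1.74 for Psmb9 (SE 0.15, adjusted p = 2.73e-28), and -1.75 for Psmb10 (SE 0.15, adjusted p = 9.09e-29). At 20 h they were -0.84 for Psmb8 (adjusted p = 8.45e-08), -1.31 for Psmb9 (adjusted p = 5.49e-17), and -1.71 for Psmb10 (adjusted p = 1.23e-27). The 2 experiments differ in how the cells were purified and were not fitted together, so the difference between them was not tested. Of the 50-base stretches of Psmb8, 5.51% are shared with the antisense gene Gm20496, and of Psmb9 9.71% with Tap1, and the use of strand in counting is not given in the sources used here.

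**Figure D2:**
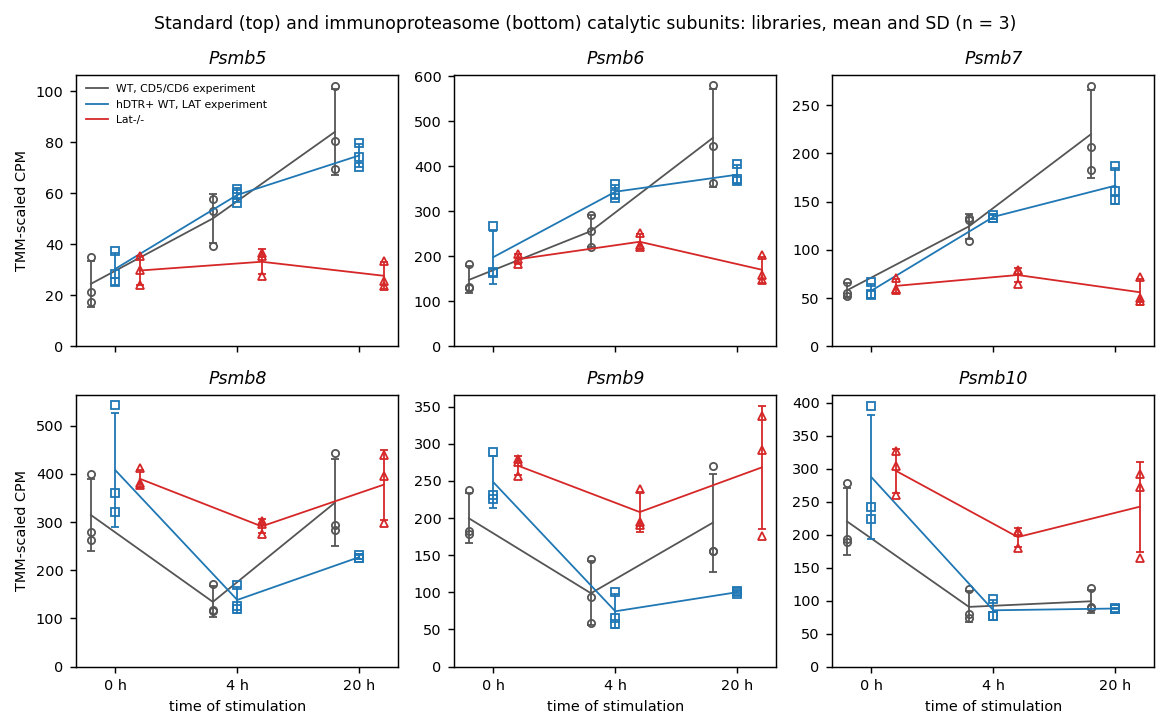
CPM by time of stimulation for the 3 standard catalytic subunits (top) and the 3 immunoproteasome subunits (bottom), with open symbols for libraries, lines for means, and bars for the SD of 3 libraries, in the WT of each experiment and in Lat-/- cells. The standard subunits climb in both WT groups, the immunoproteasome subunits drop at 4 h, and the Lat-/- lines stay nearer to their level at 0 h.

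The balance between each immunoproteasome subunit and the standard subunit that it replaces was followed within each library as the ratio of CPM per kb of annotated exons. Psmb8 to Psmb5 was 3.51, 4.01, and 3.05 in the WT of the CD5/CD6 experiment at 0 h, 0.581, 0.773, and 0.789 at 4 h, and 1.08, 0.966, and 1.15 at 20 h. Psmb9 to Psmb6 had a mean of 0.694 ± 0.0276 (SD, n = 3) before stimulation, 0.196 ± 0.0701 after 4 h, and 0.212 ± 0.0296 after 20 h. Psmb10 to Psmb7 had a mean of 7.56 ± 0.721 at 0 h, 1.46 ± 0.321 at 4 h, and 0.909 ± 0.0675 at 20 h. Every stimulated library of the WT lay below every library at 0 h for all 3 ratios. At 20 h, the levels of Psmb8 overlapped with those at 0 h, and its ratios to Psmb5, a gene that had risen, did not. The hDTR+ WT gave means of 3.55 ± 0.459, 0.619 ± 0.118, and 0.809 ± 0.053 for Psmb8 to Psmb5, of 0.659 ± 0.093, 0.111 ± 0.0352, and 0.135 ± 0.00921 for Psmb9 to Psmb6, and of 9.84 ± 1.92, 1.28 ± 0.237, and 1.07 ± 0.129 for Psmb10 to Psmb7. With 3 libraries against 3, an exact permutation test cannot go below a p of 0.1, so the ratios are given as a description, and their absolute size depends on annotated lengths and on the reads that Psmb5 and Psmb7 share with other genes.

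**Figure D3:**
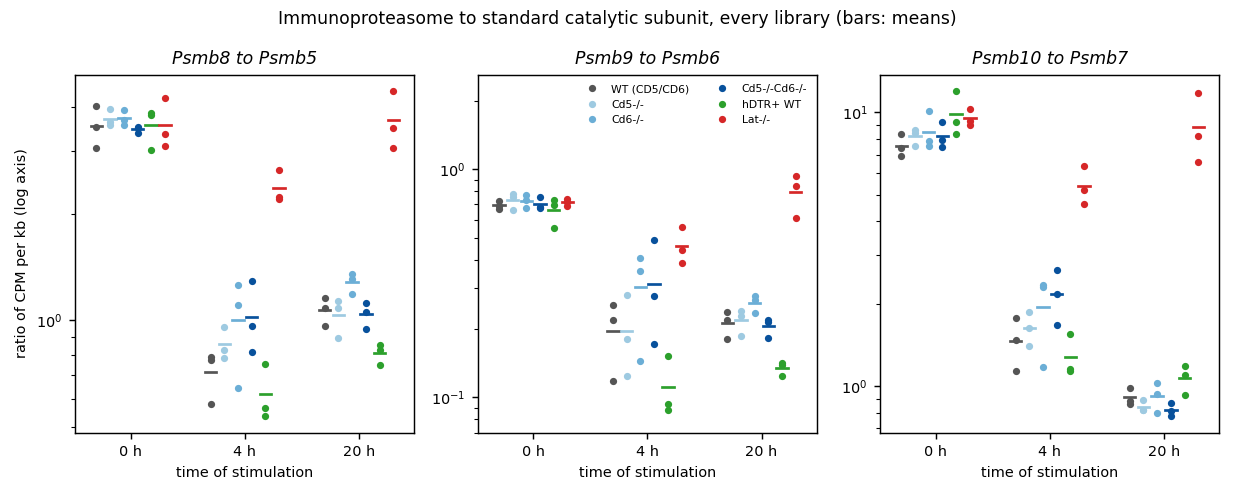
Ratio of CPM per kb of each immunoproteasome subunit to the standard subunit that it replaces, on a log axis, by time of stimulation. Points are libraries and bars are means of 3. At 4 h the libraries of every genotype lie below those of the same genotype at 0 h, with Lat-/- means of 2.36, 0.461, and 5.39. At 20 h this holds for all genotypes but Lat-/-, which returns to 3.66, 0.797, and 8.83.

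The LAT experiment asked how much of this response needed the adaptor. Lat itself measured 292, 213.6, and 240.6 CPM in the hDTR+ WT and 15.2, 11.56, and 19.07 CPM in Lat-/- cells at 0 h. At 0 h, 0 of the 47 genes differed between Lat-/- and hDTR+ WT with edgeR, with 1 at an unadjusted p under 0.05 (Psmc3ip at 0.44, adjusted p = 0.784) and 0 with DESeq2, where 1.59% of all genes were called. At 4 h, 30 were lower and 3 were higher in Lat-/- cells (23.9% of all genes called in either direction), and at 20 h 36 were lower and 3 were higher (35.2%). The 3 higher genes at both times were Psmb8, Psmb9, and Psmb10. Of all genes averaging at least 10 reads, 25.5% were higher and 25.1% were lower at 4 h, beside 3 and 30 of the 47 genes, and 35.1% and 34.3% at 20 h, beside 3 and 36. The markers of activated T cells, a list of 5 genes, summed to between 1724 and 1847 CPM in the hDTR+ WT at 20 h and to between 118 and 267 CPM in Lat-/- cells, and the part of this in the values was not tested.

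In Lat-/- cells themselves, 9 of the 47 genes rose and 2 fell at 4 h (7.38% and 8.05% of all genes), and 0 were called at 20 h (5.35% and 5.34%). Of those with a mean of at least 10 reads, 15.4% rose and 16.9% fell at 4 h and 11.5% and 11% at 20 h, so the 9 genes that rose at 4 h are near the share of such genes. At 20 h, 3 had an unadjusted p under 0.05 (Psmd9 at -0.43, Psmf1 at 0.30, and Psmb10 at -0.29), and DESeq2 called 1 higher (Psmf1) and 1 lower (Psmd9). Psmd9 was also called at 20 h with library totals (-0.49, adjusted p = 0.036) and with a filter on low counts (-0.42, adjusted p = 0.012). The 9 that rose at 4 h were Psmc2 (0.72), Psmd1 (0.66), Psmd11 (0.57), Psmb2 (0.51), Psma5 (0.50), Psmd7 (0.50), Psmd13 (0.48), Psme3 (0.47), and Psmd2 (0.42), all on the log2 scale. When the replicates numbered 1 were left out, 2 rose and 0 fell. Psma5 was also not called with library totals (0.41, adjusted p = 0.0769) or without the replicates numbered 2 (0.41, adjusted p = 0.131), nor Psmd7 without the latter (0.41, adjusted p = 0.0698). DESeq2 called 14 higher, as did edgeR without the 0 h library 2 of the hDTR+ WT, which enters this comparison only through the shared estimate of the spread. The median log2 fold change was 0.23 at 4 h and -0.04 at 20 h, against 0.00 and -0.02 for expressed genes. From 4 h to 20 h, 12 were lower and 0 higher in Lat-/- cells (4.74% and 5.39% of all genes, and 9.7% and 11.7% of those with a mean of at least 10 reads), among them Psmc4 at -0.57 (adjusted p = 0.0024). This count rested on single replicates, with 0 lower without those numbered 1, 22 lower without those numbered 3, and 0 lower and 6 higher (Psmb8, Psmb9, Psmb10, Psme1, Psme2, and Psmg4) without those numbered 2. Without the 0 h library 2 of the hDTR+ WT, 15 were lower and 2 higher. Leaving out the replicates numbered 2 made Psme1 (0.50, adjusted p = 0.0217) and Psme2 (0.53, adjusted p = 0.0192) higher at 20 h than at 0 h, and without those numbered 3, Psmb10, Psmc5, Psmd9, and Psmg1 were lower.

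The difference in response was tested in the same fit. The change from 0 h to 4 h differed between Lat-/- and hDTR+ WT for 24 of the 47 genes, 21 responding less and 3 more positively (15% of all genes called), and the change from 0 h to 20 h for 38, 35 and 3 (26.3%). Of genes with a mean of at least 10 reads, 16.5% responded less and 16.1% more positively at 4 h, and 26.9% and 27.8% at 20 h. Without the replicates numbered 1, 8 differed at 4 h and 37 at 20 h, of which 3 again were the immunoproteasome subunits. With library totals, 15 differed at 4 h. Without the 0 h library 2 of the hDTR+ WT, the counts were 34 and 41. Psme3 had the largest difference among proteasome genes proper. In the hDTR+ WT it went from 175.5, 164.1, and 178.3 CPM at 0 h to 930.6, 1008, and 703.1 CPM at 4 h and 775.4, 786, and 833.2 CPM at 20 h. In Lat-/- cells it went from 161, 196, and 166.4 CPM to 254, 237.8, and 234.3 CPM and then to 180.3, 173.3, and 239.8 CPM. The groups overlapped at 0 h and lay far apart after stimulation, and the responses differed by a log2 of -1.88 at 4 h (SE 0.21, adjusted p = 6.34e-17) and -2.03 at 20 h (SE 0.21, adjusted p = 1.95e-20). Psmd7 went from 109.1, 142.3, and 108.2 CPM to 445.9, 458, and 480.7 CPM at 20 h in the hDTR+ WT and from 106.5, 120.3, and 116.2 CPM to 132.5, 119.2, and 154.6 CPM in Lat-/- cells, a difference in response of -1.70 (SE 0.21, adjusted p = 1.95e-14).

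By role, the difference at 20 h reached all 7 alpha ring genes, all 6 ATPases, 6 of 7 beta ring genes, 10 of 11 non-ATPase subunits, 3 of 4 core chaperones, 1 of 3 base chaperones, and 1 of 5 activators and inhibitors. The median difference was -1.27 for the alpha ring (lowest Psma5 at -1.48), -1.13 for the beta ring (lowest Psmb7 at -1.69), -1.11 for the ATPases (lowest Psmc5 at -1.47), and -1.42 for the non-ATPase subunits (lowest Psmd1 at -1.75). Psmg3, a core chaperone, differed by -1.97 (SE 0.25, adjusted p = 1.29e-13) and Psmc3ip by -3.36 (SE 0.31, adjusted p = 9.96e-26). The 9 genes not called at 20 h were Psmb1 (-0.02), Psmd4 (-0.26), Psmd5 (-0.52, adjusted p = 0.0541), Psmd10 (-0.32), Psmg4 (-0.42), Psme1 (0.18), Psme2 (-0.15), Psme4 (-0.27), and Psmf1 (-0.11), and Psmd5 was called with DESeq2 (-0.55, adjusted p = 0.0136) and with RLE factors, library totals, or a filter on low counts. Of these 9, Psmb1, Psmd4, Psmd10, Psme1, and Psme2 were not called at 20 h in the hDTR+ WT either. Psma3 was called at 20 h (-0.78, adjusted p = 0.0135) and was not without the replicates numbered 1 or 3 (-0.82, adjusted p = 0.112, and -0.62, adjusted p = 0.126).

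**Figure D4:**
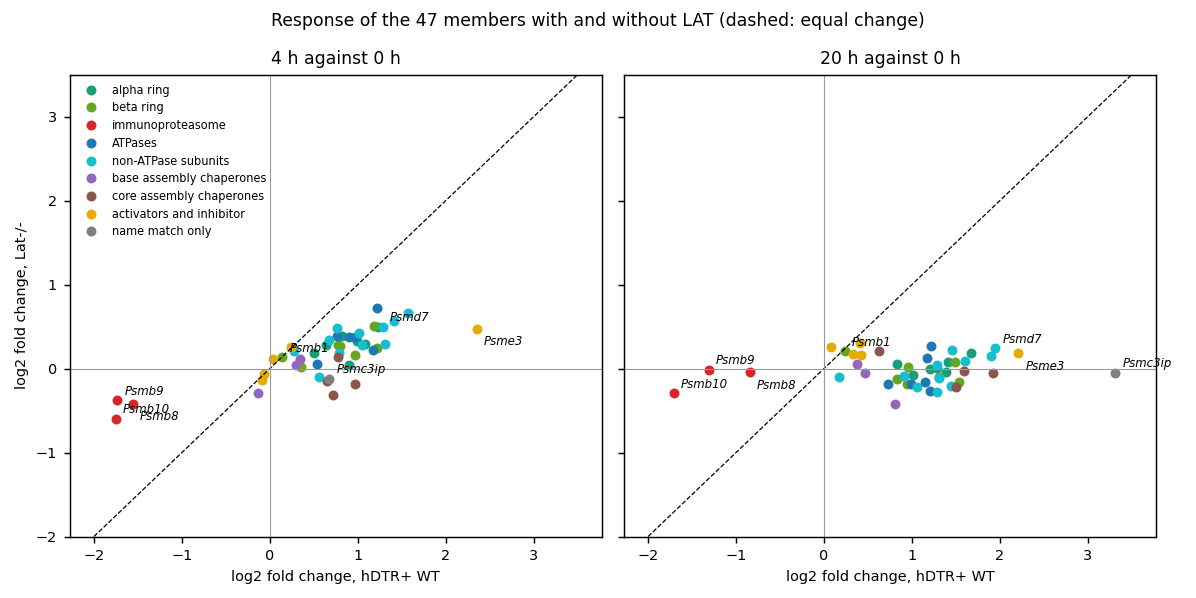
Log2 fold change against 0 h in Lat-/- cells (vertical) and in the hDTR+ WT (horizontal) for the 47 genes at 4 h (left) and 20 h (right), colored by role, with a dashed line of equal change. At 20 h the genes lie along the horizontal axis between -0.43 and 0.30 in Lat-/- cells while reaching from -1.71 to 3.31 in the hDTR+ WT.

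The immunoproteasome subunits fell less in Lat-/- cells than in the hDTR+ WT. Psmb9 measured 280.1, 275.5, and 256.3 CPM at 0 h, 194.6, 190.5, and 239 CPM at 4 h, and 291, 176.2, and 337.2 CPM at 20 h, always above the stimulated hDTR+ WT libraries, the highest of which had 101.2 CPM. The response of Psmb9 differed by 1.36 at 4 h (SE 0.21, adjusted p = 5.61e-09) and 1.30 at 20 h (SE 0.21, adjusted p = 9.53e-09), that of Psmb8 by 1.14 and 0.80 (SE 0.21, adjusted p = 0.000795 at 20 h), and that of Psmb10 by 1.15 and 1.41 (SE 0.21, adjusted p = 2.99e-10 at 20 h). Within Lat-/- cells, Psmb10 fell by 0.60 on the log2 scale at 4 h (SE 0.15, adjusted p = 0.000772) and Psmb8 by 0.42 (SE 0.15, adjusted p = 0.0309), and Psmb9 stood at -0.38 (SE 0.15, adjusted p = 0.0647). The call of Psmb8 was lost with DESeq2 (adjusted p = 0.096), with a filter on low counts (adjusted p = 0.0958), and without the replicates numbered 1 (-0.41, adjusted p = 0.309) or 2 (-0.42, adjusted p = 0.0575), and that of Psmb10 without those numbered 1 (-0.52, adjusted p = 0.114). Psmb9 was called without the replicates numbered 3 (-0.53, adjusted p = 0.0117) and with library totals (-0.46, adjusted p = 0.0161). The 20 h library 2 of Lat-/- cells had the lowest values of the 3 for Psmb8 (297.3 CPM), Psmb9, and Psmb10 (164.4 CPM), and also for Psme1 and Psme2. The ratio of Psmb8 to Psmb5 in Lat-/- cells was 3.56 ± 0.596 (SD, n = 3), 2.36 ± 0.253, and 3.66 ± 0.705 in order of time, against 0.809 ± 0.053 in the hDTR+ WT at 20 h, with no overlap after stimulation.

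The CD5/CD6 experiment asked whether the absence of either receptor, or of both, changed the response. In none of the 9 comparisons with the WT was any of the 47 genes called by edgeR or by DESeq2, and unadjusted p-values under 0.05 numbered 1 in Cd6-/- cells at 4 h, 3 in Cd5-/-Cd6-/- cells at 4 h, and 0 in the other 7 comparisons. Few genes were called at all, with 0.0619%, 0.0867%, and 0.0217% in Cd5-/- cells (in order of time), 0%, 0.0031%, and 0.0186% in Cd6-/- cells, and 0.0279%, 0.0434%, and 0.0465% in Cd5-/-Cd6-/- cells. Outside the immunoproteasome, the log2 differences lay between -0.20 and 0.36 over these comparisons, with SEs of 0.14 to 0.22. The largest such value, 0.36, was that of Psmc3ip, which is no proteasome subunit, in the 0 h libraries labeled Cd6-/-. Psmg3 followed there at 0.33. In those libraries the median of the 47 genes was 0.14, and -0.07 without the library 3. Without the 0 h libraries 2 labeled Cd5-/- and Cd6-/-, the 9 counts were again 0, as they were without the 0 h library 3 labeled Cd6-/-. The responses of the knockout groups were also counted on their own. At 4 h, 34 were higher and 3 lower in Cd5-/- cells (13.2% and 15.2% of all genes), 28 and 3 in Cd6-/- cells (12.5% and 14.7%), and 34 and 2 in Cd5-/-Cd6-/- cells (12.6% and 13.7%). At 20 h, 44 were higher and 1 lower in Cd5-/- cells (16.8% and 21.3%), 42 and 1 in Cd6-/- cells (16% and 20.8%), and 44 and 1 in Cd5-/-Cd6-/- cells (16.7% and 21.6%), and the lower gene was Psmb10 each time. Of genes with a mean of at least 10 reads, 28.9%, 27.3%, and 28% were higher at 4 h in the same order. Lower at 4 h were 31.7%, 30.6%, and 28.6% of them. At 20 h, 35.5%, 34%, and 35.5% of them were higher and 38.6%, 37.8%, and 38.4% were lower. Without the 0 h libraries 2 labeled Cd5-/- and Cd6-/-, 33 and 43 were higher at 4 h and 20 h in Cd5-/- cells and 24 and 40 in Cd6-/- cells. Without the 0 h library 3 labeled Cd6-/-, 34 and 44 were higher in Cd6-/- cells. The median fold change at 20 h on the log2 scale was 1.67 in Cd5-/- cells, 1.47 in Cd6-/- cells, and 1.73 in Cd5-/-Cd6-/- cells, beside 1.66 in the WT.

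The unadjusted values under 0.05 all belonged to immunoproteasome subunits. In Cd5-/-Cd6-/- cells at 4 h, Psmb9 stood at 86.11, 212.9, and 156.4 CPM, against 58.75, 93.14, and 144.2 CPM in the WT, and Psmb8 at 150.6, 200.4, and 203 CPM, against 116.4, 114.8, and 171.4 CPM. As groups they overlapped for both genes. The replicate numbers pair these libraries, and with the same number the Cd5-/-Cd6-/- library lay above the WT library in 3 of 3 pairs for each gene. With the number as a block, 0 of the 47 genes were called in any of the 9 comparisons with the WT. The log2 differences were 0.62 for Psmb9 (SE 0.26, adjusted p = 1), 0.46 for Psmb8 (SE 0.21, adjusted p = 1), and 0.42 for Psmb10 (SE 0.20, adjusted p = 1). In Cd6-/- cells at 4 h, with 70.97, 192.1, and 169.8 CPM, Psmb9 had a log2 difference of 0.55 (SE 0.26, adjusted p = 1) and was likewise above the WT in 3 of 3 pairs. These values depended on which libraries entered the test. Without the replicates numbered 3, Psmb9 (0.98, adjusted p = 5.06e-10), Psmb8 (0.60, adjusted p = 0.00159), and Psmb10 (0.60, adjusted p = 0.00228) were called in Cd5-/-Cd6-/- cells and Psmb9 (0.79, adjusted p = 3.99e-06) in Cd6-/- cells. Without those numbered 2, Psmb9 had 0.25 in Cd5-/-Cd6-/- cells and 0.26 in Cd6-/- cells. The replicates numbered 2 held the highest Psmb9 value at 4 h in all 3 knockout groups, and those numbered 1 the lowest. In Cd5-/-Cd6-/- cells, the fall of Psmb9 from 0 h to 4 h was not called (-0.41, SE 0.25, adjusted p = 0.28), whereas it was in Cd5-/- cells (-1.08, adjusted p = 0.000421) and in Cd6-/- cells (-0.77, adjusted p = 0.0146). The difference between these responses was not tested. With the replicate number as a block, 3 of the 47 genes were lower at 4 h in Cd5-/-Cd6-/- cells, against 2 in the main fit. Leaving out the replicates numbered 2 or 3 also gave 3. Outside the immunoproteasome, the lowest log2 fold change there in the main fit was -0.002 (Psmd5). The missing call of Psmb9 thus depended on the setting. Markers of gamma delta T cells, a list of 4 genes, summed to between 61.8 and 86.2 CPM in Cd5-/-Cd6-/- cells at 4 h, against 20.7 to 22.5 CPM in the WT. At 4 h they summed to between 56.93 and 62.05 CPM in Cd5-/- cells, where the log2 difference of Psmb9 from the WT was 0.014. In Cd6-/- cells they summed to between 16.21 and 30.1 CPM. The part of gamma delta T cells in these values was not tested.

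**Figure D5:**
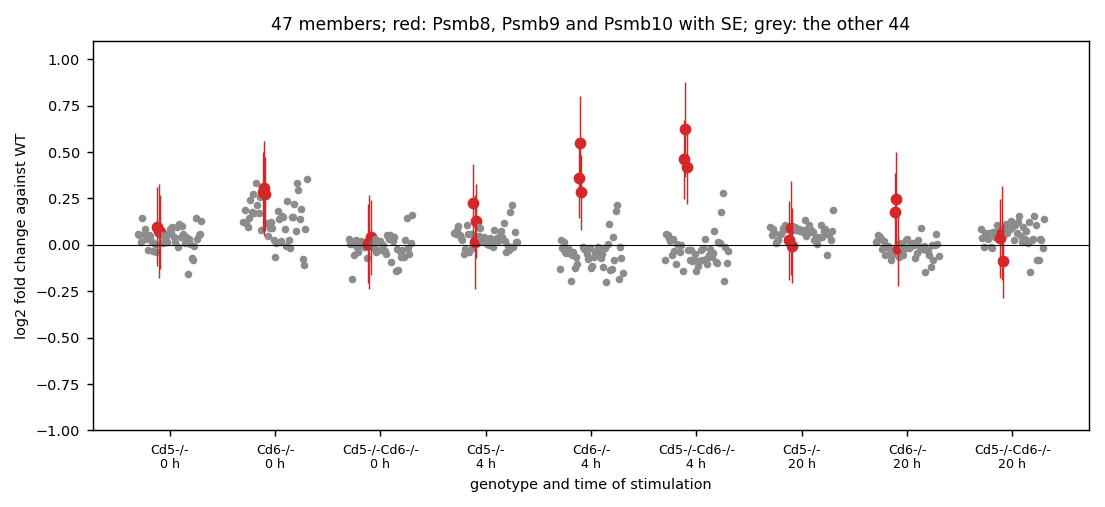
Log2 fold change against the WT of the same time for the 47 genes in Cd5-/-, Cd6-/-, and Cd5-/-Cd6-/- cells, with Psmb8, Psmb9, and Psmb10 in red with their SE and the other 44 genes in gray. The gray points stay between -0.20 and 0.36, and the highest red point, at 0.62, is Psmb9 in Cd5-/-Cd6-/- cells at 4 h.

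Genes that work with the proteasome but carry other names were followed in 7 lists, whose counts stand beside the shares of genes with a mean of at least 10 reads given above (35.4% higher and 37.7% lower at 20 h in the WT of the CD5/CD6 experiment, and 32.4% and 35.2% in the hDTR+ WT). Of 5 subunits and assembly factors without a Psm symbol, 3 rose at 20 h in the WT of the CD5/CD6 experiment and 0 fell, led by Pomp, the chaperone that completes the core, at 1.72 (SE 0.18, adjusted p = 2.5e-13). Pomp had 1.31 in the hDTR+ WT, where 3 rose and 1 fell. Of 11 shuttle factors and proteasome-bound deubiquitinases, 8 rose and 1 fell in the WT and 6 rose and 1 fell in the hDTR+ WT. The deubiquitinases Uchl5 (2.33, SE 0.17) and Usp14 (1.87, SE 0.16) and the bound thioredoxin Txnl1 (2.22, SE 0.17) were among those that rose. Of the 3 genes of the segregase that extracts tagged proteins, 3 and 2 rose, with Vcp at 1.38 and 1.28. In Lat-/- cells at 4 h, 1, 3, and 2 genes of these 3 lists rose and 0 fell, where 15.4% and 16.9% of genes with a mean of at least 10 reads did. They were Pomp (0.49), Ubqln1 (0.69), Txnl1 (0.66), Vcp (0.62), Nploc4 (0.40, adjusted p = 0.049), and the zinc finger gene Zfand2a (1.54, SE 0.16, adjusted p = 1.21e-19). At 20 h, Zfand2a alone was called in these lists, and it was lower than at 0 h (-0.51, SE 0.16, adjusted p = 0.0185).

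Of 4 genes for the transcription factors Nfe2l1 and Nfe2l2 and the enzymes that process Nfe2l1, 2 rose and 2 fell at 4 h and 0 rose and 2 fell at 20 h, in the WT of both experiments. Nfe2l1, which drives proteasome genes when the proteasome is impaired, rose at 4 h (1.06, SE 0.18, adjusted p = 6.3e-07 in the WT, and 1.14, SE 0.15 in the hDTR+ WT) and stood at -0.24 (adjusted p = 0.33) and -0.01 at 20 h. Nfe2l2 fell at both times (-0.95 and -1.66 in the WT). Of 5 ubiquitin and E1 genes, 3 rose at 4 h, and 2 rose and 2 fell at 20 h in the WT. The counts in the hDTR+ WT were 3 at 4 h, and 2 and 3 at 20 h. Beside the shares of genes with a mean of at least 10 reads (29.3% higher and 31.3% lower at 4 h in the WT, and 29% and 30.5% in the hDTR+ WT), counts of 2 or 3 in lists of 4 and 5 genes set neither list apart. The same limit applies to the list of 5 subunits and assembly factors without a Psm symbol, of which 3 rose at 20 h.

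Genes of MHC class I antigen processing and Irf1 share known regulation with the immunoproteasome. At 4 h, when Psmb8, Psmb9, and Psmb10 fell, 1 of 7 MHC class I genes rose (Erap1, which trims peptides, at 1.15) and 1 fell (Tapbp at -0.49, adjusted p = 0.0336) in the WT of the CD5/CD6 experiment, with Tap1 at -0.47 (adjusted p = 0.13), and 1 rose and 4 fell in the hDTR+ WT. Of the same 7 genes, 1 rose (Erap1 at 0.40) and 5 fell at 20 h in the WT of the CD5/CD6 experiment and 0 rose and 6 fell in the hDTR+ WT, with Tap1, a subunit of the peptide transporter, at -0.07 (SE 0.23, adjusted p = 0.97) in the first and -1.30 (SE 0.15, adjusted p = 4.5e-17) in the second. Irf1, an interferon response factor that is known to activate Psmb8, Psmb9, and Psmb10, had -0.18 (adjusted p = 0.728) at 4 h and -0.68 (SE 0.26, adjusted p = 0.027) at 20 h in the WT and -1.21 and -2.31 (SE 0.15, adjusted p = 1.9e-48) in the hDTR+ WT. In Lat-/- cells, Irf1 measured 347.6, 362.8, and 430.9 CPM at 0 h, 1100, 482.9, and 849.1 CPM at 4 h, and 540.3, 238.8, and 516.1 CPM at 20 h, against 63.85, 69.37, and 68.04 CPM in the hDTR+ WT at 20 h. Compared with the hDTR+ WT at 20 h, 6 of 7 MHC class I genes were higher in Lat-/- cells and 0 were lower. Of genes with a mean of at least 10 reads, 35.1% were higher and 34.3% were lower in that comparison. Tap1 was higher by 1.61 (SE 0.15) and Irf1 by 2.69 (SE 0.16). The library 2 of Lat-/- cells at 20 h, which was lowest for Psmb9, was also lowest for Irf1 and for Tap1 (395.2 against 636.2 and 607.3 CPM). At 4 h, the Irf1 levels of Lat-/- libraries lay above those at 0 h, while Psmb10 was lower than at 0 h (-0.60). Any part of Irf1 in the levels of the immunoproteasome subunits was not tested. Of the 39 genes of the 7 lists, 0 differed from the WT in Cd5-/-, Cd6-/-, or Cd5-/-Cd6-/- cells by edgeR or DESeq2 at any time, with 6 at an unadjusted p under 0.05 in Cd6-/- cells at 4 h, 5 in Cd5-/-Cd6-/- cells at 4 h, and 1 in the latter at 20 h.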

How the data were processed

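RNA of naive CD4+ T cells was sequenced as single reads from stranded mRNA libraries. The authors deposited raw read counts per gene for each experiment, which they made with bcl2fastq 2.17.1.14, DimerRemover, STAR on GRCm38, and featureCounts, and they tested differences with DESeq2. The annotation release, the strand setting, and the handling of reads with several matches are not given in the sources used here. The use of the magnetic kit in one experiment and of sorting in the other is per the labels and the study's methods.

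From these deposited counts, libraries were scaled by TMM factors, and genes with at least 1 read in an experiment were tested with edgeR 4.0.16 (quasi-likelihood test, R 4.3.3, limma 3.58.1). Each experiment was fitted on its own, with all its libraries in 1 fit, and p-values were adjusted by Benjamini-Hochberg over all genes tested. The members, the lists, and the tests were chosen with earlier results of these data known. The genes followed under every setting were the 6 catalytic subunits and, in each role group, the members with the highest and the lowest log2 fold change at 20 h in the WT of the CD5/CD6 experiment. Alternatives were DESeq2 1.42.0, RLE factors, library totals, a filter on low counts, the replicate number as a block, a fold change above 2, and each replicate number left out. The omission of the 0 h library 3 labeled Cd6-/- and of the 0 h library 2 of the hDTR+ WT was added after seeing the data. Gene names, positions, and lengths were matched to GENCODE M21 for 54487 of 55385 identifiers, and shares of 50-base stretches in other genes were counted on its transcripts. The counts over 1 of the 7 lists, the interferon response factors, are not reported here. Scripts were tested on simulated data.

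Deviations of libraries with the same replicate number correlated above 0.1 for all pairs in 16 of 18 comparisons of the CD5/CD6 experiment (r from 0.062 to 0.835), so the numbers were taken to pair the libraries there, and in 1 of 9 comparisons of the LAT experiment (r from -0.315 to 0.445), where they were not. Replicate libraries differed beyond sampling noise in every pair (chi-square per degree of freedom of 3.02 or more). At these depths, 3 reads correspond to between 0.0663 and 0.169 CPM, which covers counting error only. The study's figure legend speaks of 3 independent samples per condition, for the 0 h and 20 h data that it shows. For 4 h, the number of replicates is per the labels.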

Additional observations from a re-analysis of the deposited data

Results flagged for a closer look

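The change from 0 h differed between Lat-/- cells and the hDTR+ WT, by the interaction term of edgeR's quasi-likelihood fit, for 24 of the 47 genes at 4 h and for 38 at 20 h. Of all genes tested, 15% differed in this way at 4 h and 26.3% at 20 h. Of genes with a mean of at least 10 reads, 16.5% responded less and 16.1% more positively at 4 h. At 20 h these shares were 26.9% and 27.8%. The values are log2 differences, Lat-/- minus hDTR+ WT. At 4 h, the followed genes with such a difference were Psmb5 (-0.81), Psmb7 (-0.98), Psma5 (-0.73), Psma3 (-0.85), Psmb2 (-0.68), Psmc5 (-0.94), Psmd7 (-0.79), Psme3 (-1.88), and Psmg4 (-0.80), which responded less, and Psmb8 (1.14), Psmb9 (1.36), and Psmb10 (1.15), which fell less. At 20 h, they were Psmb5 (-1.40), Psmb6 (-1.13), Psmb7 (-1.69), Psma5 (-1.48), Psma3 (-0.78), Psmb2 (-1.42), Psmc5 (-1.47), Psmc3 (-0.92), Psmc3ip (-3.36), Psmd7 (-1.70), Psmd9 (-1.24), Psme3 (-2.03), and Psmg3 (-1.97), and again Psmb8 (0.80), Psmb9 (1.30), and Psmb10 (1.41). Without the replicates numbered 1, the differences of Psmb5, Psma5, Psma3, Psmb2, Psmc5, Psmd7, and Psmg4 at 4 h were not called, and those of Psme3, Psmb8, Psmb9, and Psmb10 were. Those of Psma5, Psma3, Psmb2, and Psmg4 at 4 h were also not called with library totals (adjusted p = 0.0829, 0.0647, 0.0749, and 0.0565) or without the replicates numbered 3 (adjusted p = 0.0856, 0.0731, 0.0793, and 0.1035), and that of Psmb2 with a filter on low counts (adjusted p = 0.0512). The difference of Psma3 at 20 h was not called without the replicates numbered 1 or 3. Psmb6, Psmc3, Psmc3ip, and Psmg3 were called at 4 h without the replicates numbered 2 (-0.82, -0.68, -1.09, and -0.91), and Psmc3ip also with DESeq2 (-0.78, adjusted p = 0.0272) and with a filter on low counts (-0.80, adjusted p = 0.0369).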

How the results depend on the processing

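Requiring a fold change above 2 left 19 genes higher at 4 h in the WT and 18 in Cd5-/-Cd6-/- cells. At that time, 20 remained where only Cd5 and 12 where only Cd6 was deleted. Between 4 h and 20 h, 7 remained in that WT and 2 in the hDTR+ WT. At 4 h, 13 remained in the hDTR+ WT and 0 in Lat-/- cells. From 0 h to 20 h, the same cut kept 37 higher genes in the WT, 27 in the hDTR+ WT, and 0 in Lat-/- cells. It kept 37 without Cd5, 36 without Cd6, and 36 without both at 20 h. Shares of all genes at this cut are not given, so these counts cannot be set against a background. DESeq2 called 14 higher at 4 h and 1 at 20 h in Lat-/- cells. Library totals gave 34 higher between 4 h and 20 h in the hDTR+ WT and 15 differing responses at 4 h. Leaving out 1 replicate number at a time gave 0 to 1 called in Cd6-/- and 0 to 3 in Cd5-/-Cd6-/- cells against the WT at 4 h, 2 to 11 higher at 4 h, 0 to 2 at 20 h, and 0 to 6 from 4 h to 20 h in Lat-/- cells, and 8 to 31 differing responses at 4 h. The replicate block moved no count of called genes by over 1.5 times. In the CD5/CD6 experiment it gave 37 higher at 4 h and 44 at 20 h in the WT. In the LAT experiment, where the numbers were not taken to pair the libraries (all 3 correlations were above 0.1 in the comparison of genotypes at 0 h, and not in the other 8 comparisons), it added calls for Psmb9 at 4 h in Lat-/- cells (-0.39, adjusted p = 0.0417) and for the differences in response of Psmb6 (-0.55, adjusted p = 0.0454) and Psmg3 (-0.68, adjusted p = 0.0441) at 4 h and Psmd5 (-0.53, adjusted p = 0.0453) at 20 h.

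Without division by length, the mean ratios at 0 h, 4 h, and 20 h were 13.3, 2.69, and 4.02 in the WT, 13.3, 2.33, and 3.04 in the hDTR+ WT, and 13.4, 8.87, and 13.8 in Lat-/- cells for Psmb8 to Psmb5, 1.36, 0.382, and 0.414, then 1.29, 0.217, and 0.263, then 1.40, 0.902, and 1.56 for Psmb9 to Psmb6, and 3.77, 0.727, and 0.453, then 4.91, 0.637, and 0.533, then 4.75, 2.69, and 4.40 for Psmb10 to Psmb7. These ratios differ from those per length by construction.

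Log2 values that turned their sign belonged to changes that had not passed the test. With library totals these were, at 4 h, Psmb1 (-0.20), Psmd9 (-0.073), and Psme4 (-0.11) in the WT, Psmb1 (-0.091) and Psme4 (-0.20) in the hDTR+ WT, Psma3 (-0.04), Psmc3 (-0.026), and Psmd9 (-0.046) in Lat-/- cells, and the differences in response of Psmb1 (0.15) and Psmd4 (0.087), and, at 20 h, Psmb8 (-0.02) in the WT and Psma3 (-0.002) in Lat-/- cells. With DESeq2 and with RLE factors these were Psmb9 at 20 h in Lat-/- cells (0.011 in both) and the difference in response of Psmb1 at 4 h (0.014 in both). Without 1 replicate number, the ranges that crossed 0 were -0.007 to 0.093 for Psmb1 and -0.20 to 0.085 for Psmd5 at 4 h and -0.21 to 0.033 for Psmb9 at 20 h in the WT, and -0.017 to 0.34 for Psmb1 and -0.18 to 0.12 for Psme4 at 4 h in the hDTR+ WT. In Lat-/- cells at 4 h they were -0.056 to 0.28 for Psmb5, -0.063 to 0.16 for Psma3, -0.21 to 0.029 for Psmc3ip, and -0.020 to 0.062 for Psmd9. In Lat-/- cells at 20 h they were -0.38 to 0.086 for Psmb5, -0.40 to 0.006 for Psmb7, -0.16 to 0.14 for Psmb8, -0.23 to 0.23 for Psmb9, -0.023 to 0.39 for Psma5, -0.058 to 0.17 for Psma3, -0.12 to 0.25 for Psmb2, -0.21 to 0.13 for Psmc3ip, -0.16 to 0.036 for Psmd5, -0.38 to 0.23 for Psmg3, and -0.065 to 0.40 for Psmg4. For the difference in response they were -0.18 to 0.14 for Psmb1 and -0.37 to 0.23 for Psmd4 at 4 h and -0.11 to 0.071 for Psmb1 at 20 h. The cause of these changes was not tested. Psma5, Psmb3, and Psmb5 share 54.1% to 55.8% of their 50-base stretches with other genes, foremost pseudogenes, and Psme2 54.9%, foremost with the protein-coding Psme2b, and the effect on their levels was not tested.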
